A study of Mus musculus with 18 samples.

Results

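The 44 genes described here encode the machinery that copies DNA in S phase. They were taken by gene symbol from a list ordered by role: 6 subunits of the MCM2-7 helicase, 6 of the origin recognition complex, 3 helicase-loading regulators, 6 helicase-activating factors, 6 of the sliding clamp and its loader, 9 of the polymerases and primase, 3 of replication protein A, 2 that finish Okazaki fragments and 3 that supply deoxynucleotides. All 44 were measured, among 19938 genes in all, on 18 arrays of F9 cells. F9 is a line of mouse embryonal carcinoma, the stem cells of a germ cell tumour, and retinoic acid turns it toward endoderm. Of these arrays 2 came from cells given ethanol (EtOH, the vehicle) for 48 h, and 1 came from each of 4 ligands of the retinoic acid receptors (RARs) at 2, 6, 24 and 48 h. The ligands were ATRA (all-trans retinoic acid, the natural ligand of all RARs), BMS753 and BMS641 at 1 µM, and BMS961 at 0.1 µM. The labels give RARα as the target of BMS753, RARβ as that of BMS641 and RARγ as that of BMS961. Nothing in the labels tells if the vehicle pair stands for separate cultures, and p-values therefore measure the spread among these arrays alone, which may be technical. No early vehicle array was included, and a ligand array at 2, 6 or 24 h therefore differs from vehicle in time in culture as well as in treatment.

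Replication starts at origins. The origin recognition complex binds DNA in G1, and CDC6 and CDT1 then load the MCM2-7 helicase, a step that geminin blocks once S phase has begun. CDC45, the GINS complex and MCM10 turn the loaded helicase into a moving fork, where the primase and the polymerases work behind the PCNA clamp and replication protein A covers the single strands. Most of these genes are transcribed from late G1 under E2F transcription factors, so their RNA follows the share of cells in cycle, and embryonal carcinoma cells cycle fast with a short G1. In RNA from whole cultures, fewer cycling cells and less RNA of these genes per cell cannot be told apart. All levels below are log2 values after RMA, the authors' normalization. Levels are compared between arrays for 1 gene, never between genes.

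The cells carried embryonal carcinoma markers on every array. Pou5f1, the pluripotency factor OCT4, lay between 11.80 and 12.21 and Nanog between 11.08 and 12.07. Some of the 10 markers were lower with ATRA. Sox2 lay between 10.74 and 11.38 with ATRA, against 11.91 and 11.72 with vehicle. Zfp42 lay between 9.75 and 10.52 with ATRA, against 11.59 and 10.99 with vehicle. Of 8 fibroblast markers Dcn, Lum and Postn stayed under 4 on every array, while Pdgfra, which endoderm also uses, reached 10.04 with ATRA and 9.98 with BMS961 at 48 h. The vehicle arrays differed from each other in the replication genes. Vehicle array 1 lay below vehicle array 2 for 37 of the 44, with a median difference of -0.26 (vehicle array 1 minus 2) against 0.05 over all genes. At least 1.5-fold lower were 10 members, against 7.3% of all genes, and 0 were 1.5-fold higher, against 7.05%. The same array had more RNA of some retinoid-responsive and endoderm genes than its partner. Stra8 stood at 8.44 against 5.17, Rarb at 5.79 against 4.45 and Dab2 at 8.20 against 5.51. Others of these lists hardly differed: Cyp26a1 stood at 5.05 against 4.85 and Hoxa5 at 5.57 against 5.52. Lama1 stood at 7.04 against 6.96 and Sparc at 10.13 against 10.14. On the 4 BMS641 arrays Stra8 lay between 4.62 and 6.27. Earlier results of these data had set vehicle array 1 and the 4 ATRA arrays together. The labels name no batch for this set of arrays, and the part of such a set in the results was not tested. Results between ATRA and vehicle or BMS641 are therefore also given with the set as a block, which compares ATRA with vehicle array 1 alone and the other ligands with vehicle array 2 alone.

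Many promoters of the list carried letters of the E2F type. The RefSeq promoter table (build GRCm38.p6, 250 bases before to 50 after each start) held 36 of the 44 genes. Of these, 15 (41.7%) contained TTTGGCGC, TTTCGCGC, TTTCCCGC or TTTGCCGC on either strand, against 3.48% of the 15614 measured genes with a promoter in the table. CCAAT, the letters bound by NF-Y, stood on either strand in a promoter of 23 of the 36 genes (63.9%) and of 41.7% of the measured genes. A match describes letters in a window and not a site in use. The 250 bases before the start of 4 members are shown because these genes mark the loading and activating steps. They are Mcm6, a helicase subunit with 3 matches, of which 2 overlap (chr1:128359706-128359955, minus strand), Orc1 (chr4:108579204-108579453, plus strand), Cdc6 (chr11:98907901-98908150, plus strand), and Mcm10, which had no E2F-type letters in its window (chr2:5012792-5013041, minus strand). Capitals mark the E2F-type letters in the first 3 and CCAAT in Mcm10.
Mcm6: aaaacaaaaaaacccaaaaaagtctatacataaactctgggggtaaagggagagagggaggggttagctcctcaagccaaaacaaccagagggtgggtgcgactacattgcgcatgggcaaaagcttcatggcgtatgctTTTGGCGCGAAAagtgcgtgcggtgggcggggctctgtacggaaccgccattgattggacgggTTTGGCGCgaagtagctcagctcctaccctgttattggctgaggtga
Orc1: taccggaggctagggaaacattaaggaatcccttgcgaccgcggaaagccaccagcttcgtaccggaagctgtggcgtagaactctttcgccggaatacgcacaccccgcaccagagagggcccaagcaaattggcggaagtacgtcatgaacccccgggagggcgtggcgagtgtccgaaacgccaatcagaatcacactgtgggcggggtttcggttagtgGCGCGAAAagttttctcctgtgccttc
Cdc6: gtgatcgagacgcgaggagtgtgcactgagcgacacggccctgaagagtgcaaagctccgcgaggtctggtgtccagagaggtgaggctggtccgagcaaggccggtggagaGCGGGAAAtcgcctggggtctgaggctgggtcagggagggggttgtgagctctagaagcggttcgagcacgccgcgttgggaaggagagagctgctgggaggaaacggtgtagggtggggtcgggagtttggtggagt
Mcm10: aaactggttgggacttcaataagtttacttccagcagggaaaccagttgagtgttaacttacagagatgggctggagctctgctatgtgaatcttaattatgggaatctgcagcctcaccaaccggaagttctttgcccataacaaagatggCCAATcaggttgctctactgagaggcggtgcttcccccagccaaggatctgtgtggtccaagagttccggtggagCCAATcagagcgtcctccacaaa
Between a match and the start lay 102, 98 and 39 bases in Mcm6, 19 in Orc1 and 130 in Cdc6, and 93 and 18 bases lay between CCAAT and the start in Mcm10. From early to late with ATRA the median change was -0.34 over the 15 with a match and -0.40 over the 21 without.

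With ATRA the replication genes were lower at 24 and 48 h than at 2 and 6 h, and for most of them the array at 48 h held the lowest level of the series. The 2 h and 6 h arrays of a ligand are called early below and its 24 h and 48 h arrays late, which are different times and not replicates. Of the 44 genes 41 had a lower late than early level, as did 56.2% of all genes. The median change was -0.35 on the log2 scale against -0.04 over all genes. The fall passed the test (limma, adjusted p under 0.05) for 6: Cdc6, Mcm10, Pola2, Pold2, Fen1 and Rrm2, and none rose. This is 6 of 44 where 2.32% of all genes were called lower and 4.95% higher. At an unadjusted p under 0.05, 24 were lower (8.29% of all genes) and 1, Rfc4, higher (13.0%). Both late arrays lay below both early ones for 32 of the 44, an order that 25.8% of all genes had. The 6 calls rest on single arrays: leaving out the 2 h or the 48 h ATRA array left 0 of the 44 called, and leaving out the 6 h array left 1, Cdc6. Blocking on the array set gave 15, and over the alternative settings that kept all arrays 1131 to 2554 genes were called in all. Without the 24 h array or either vehicle array more of the 44 were called than the 6. Without any 1 BMS array 4 or 5 were called, and Fen1 lost its call each time (adjusted p between 0.0567 and 0.0633).

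**Figure D1:**
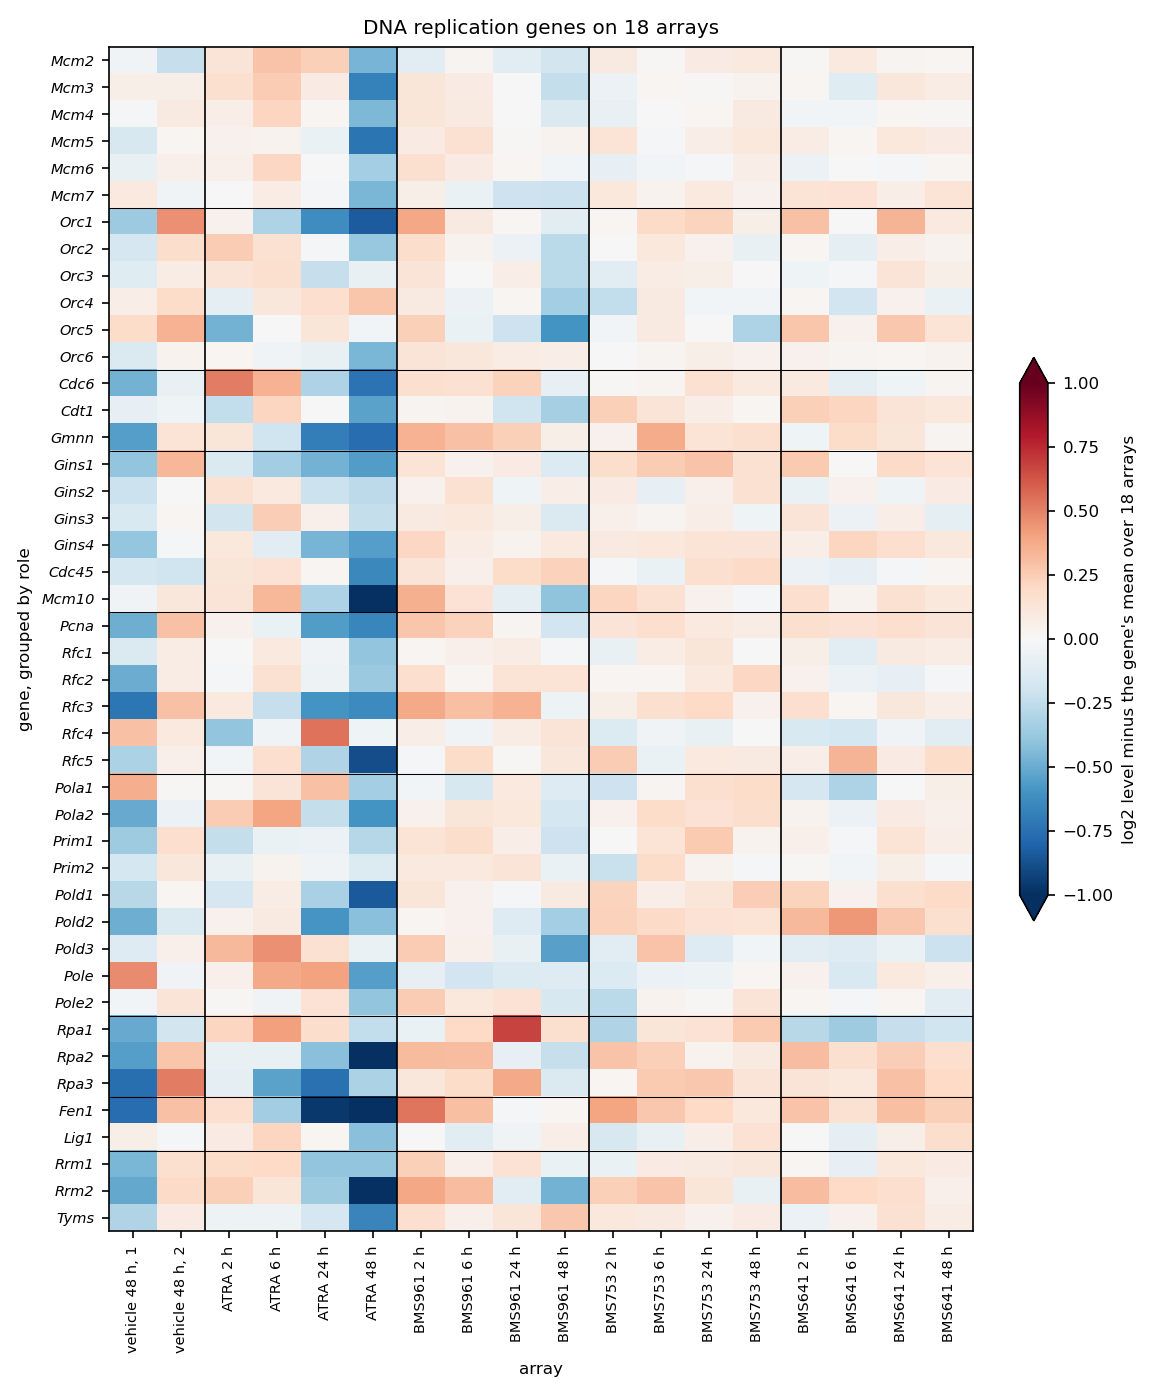
Levels of the 44 replication genes (rows, ordered by role) on the 18 arrays (columns), as log2 level minus the gene's mean over the arrays. The column of ATRA at 48 h is blue through most rows, vehicle array 1 is lower than vehicle array 2 in 37 of 44 rows, and the BMS753 and BMS641 columns stay near 0.

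The lower levels came in steps. From 2 to 6 h of ATRA the median of the 44 differed by 0.08, from 6 to 24 h by -0.21, and from 24 to 48 h by -0.36. In the last step 11 members were at least 1.5-fold lower, against 4.08% of all genes, and 0 were higher by as much, against 7.56%. At 48 h ATRA held the lowest level of all 18 arrays for 31 of the 44 genes, against 19% of all genes. It was the lowest of the 4 ATRA arrays for 38, against 42.4%. Each of these steps compares 1 array with 1 array. The range over the 4 ATRA arrays had a median of 0.66 over the members and 0.39 over all genes.

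**Figure D2:**
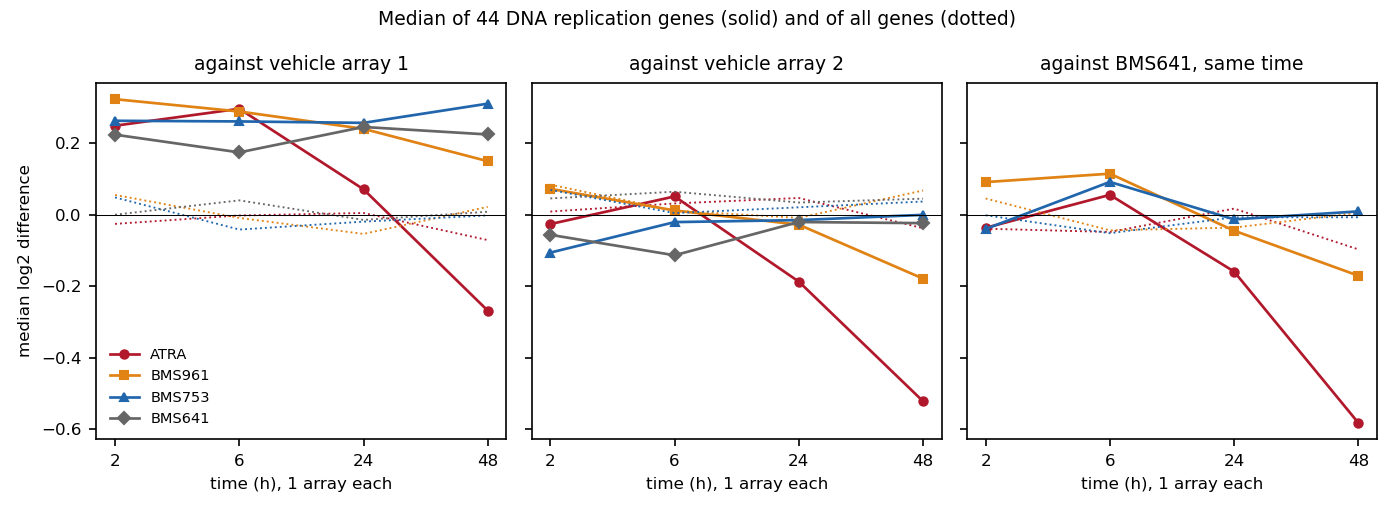
Median log2 difference of the 44 replication genes (solid) and of all genes (dotted) at each time (h, 1 array per point) against vehicle array 1, vehicle array 2 and the BMS641 array of the same time. The ATRA line ends lowest at 48 h, at -0.27, -0.52 and -0.58, and BMS961 ends at -0.17 against BMS641.

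The helicase genes were low only at the end of the course. Its 6 subunits MCM2 to MCM7 form the ring that unwinds DNA. Mcm2 was at 11.35, 11.51, 11.46 and 10.76 after 2, 6, 24 and 48 h of ATRA, and at 11.19 and 10.99 with vehicle. Mcm3 was at 11.46, 11.55, 11.38 and 10.62, and Mcm5 at 11.12, 11.11, 11.01 and 10.35. In each the first 3 ATRA arrays lay close together and the 48 h array stood apart below them. The same order held for Mcm4, Mcm6 and Mcm7, whose 48 h levels of 10.20, 10.85 and 10.89 were, like those of the other 3, the lowest of all 18 arrays. Over the 6 subunits the median step was -0.13 from 6 to 24 h and -0.56 from 24 to 48 h. The subunits differed little between the vehicle arrays (median -0.06), and ATRA at 48 h lay below vehicle array 1 by a median of 0.49 and below vehicle array 2 by 0.48. All 6 changes from early to late were below 0, between -0.50 and -0.28, and none passed the test. The late group averages 24 h, where the subunits had not yet left the early level, with 48 h.

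Origin recognition was uneven. ORC1, the subunit whose amount cycles, was at 7.99, 7.64, 7.33 and 7.12 with ATRA and at 7.59 and 8.41 with vehicle. BMS961 gave 8.34, 8.04, 7.97 and 7.84, BMS753 7.97, 8.14, 8.17 and 8.01, and BMS641 8.24, 7.95, 8.29 and 8.05. Late ATRA was thus below every array of the 3 selective ligands and below both vehicle arrays. Late against early Orc1 changed by -0.59 ± 0.22 (SE) with ATRA and did not pass, but against late BMS641 it was lower by 0.95 (1.93-fold, adjusted p = 0.0153). Orc6 followed the helicase, at 10.64, 10.59, 10.55 and 10.17. Orc4 and Orc5 went the other way from the list with ATRA, at 0.22 ± 0.16 and 0.28 ± 0.17 late against early, neither past the test. They, Orc3 and Pold3 were instead lowest of all 18 arrays with BMS961 at 48 h, where Orc5 was at 8.68, after 9.52, 9.21 and 9.07.

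Cdc6 and geminin were lower at 24 h of ATRA than at 2 and 6 h. Cdt1 was lowest at 48 h but lay below both vehicle arrays at 2 h too. Cdc6, which brings the helicase to the origin, was at 9.87, 9.71, 9.05 and 8.62 with ATRA and at 8.89 and 9.29 with vehicle. With BMS961 it was at 9.52, 9.51, 9.59 and 9.28, with BMS753 at 9.37, 9.39, 9.51 and 9.46, and with BMS641 at 9.46, 9.26, 9.32 and 9.39. The ATRA series ran from the highest level of the 18 arrays to the lowest. Its late level fell by 0.95 ± 0.16 (1.94-fold, adjusted p = 0.00778), the smallest p of the list. Gmnn, which encodes geminin, was at 7.42, 7.10, 6.61 and 6.54 with ATRA and at 6.75 and 7.44 with vehicle, and the selective ligands kept it between 7.26 and 7.67. The late ATRA arrays were its lowest pair, next to vehicle array 1. Cdt1, the second loading factor, was at 10.85, 11.31, 11.10 and 10.56 with ATRA and at 11.01 and 11.05 with vehicle.

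Among the activating factors Mcm10 moved most. MCM10 joins the helicase as forks start. It was at 9.94, 10.15, 9.51 and 8.72 with ATRA, 10.17, 9.96, 9.72 and 9.41 with BMS961, 10.03, 9.97, 9.86 and 9.80 with BMS753, and 9.98, 9.85, 9.97 and 9.92 with BMS641. Vehicle arrays gave 9.78 and 9.93, so both late arrays of ATRA and of BMS961 were below both. Mcm10 fell by 0.93 ± 0.17 late against early with ATRA (1.91-fold, adjusted p = 0.0118), and it was the member called against vehicle, at -0.74 ± 0.17 (adjusted p = 0.0356). Gins1, a subunit of GINS, was at 8.85, 8.65, 8.52 and 8.44 with ATRA, between 8.86 and 9.28 with the selective ligands, and at 8.60 and 9.33 with vehicle. Its 4 ATRA arrays and vehicle array 1 thus formed the low end already at 2 h. Gins4, another subunit, was at 10.26, 10.04, 9.69 and 9.60 with ATRA, at 9.77 and 10.14 with vehicle and between 10.19 and 10.37 elsewhere. Cdc45, the helicase's partner, was at 9.67, 9.69, 9.57 and 8.90 with ATRA, and like the MCM2-7 subunits it was low only at 48 h.

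**Figure D3:**
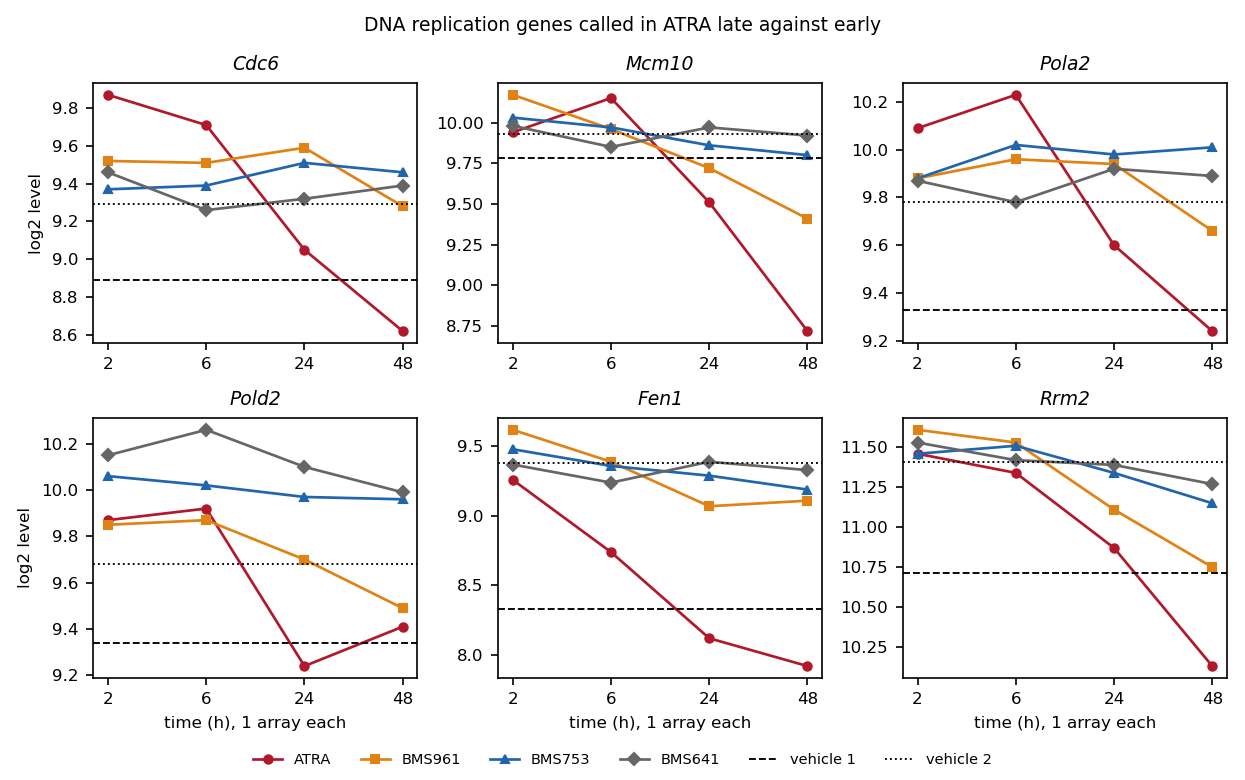
Log2 levels of the 6 replication genes that fell from early to late with ATRA (one panel each), by time in h with 1 array per point and the vehicle arrays as horizontal lines. The ATRA line ends lowest in each panel except Pold2, whose 24 h level of 9.24 is under the 9.41 at 48 h, and in Mcm10 and Rrm2 the BMS961 line ends at 9.41 and 10.75.

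The clamp and its loader were lower on the same arrays. Pcna, the ring that holds polymerases on DNA, was at 12.06, 11.95, 11.46 and 11.37 with ATRA and at 11.53 and 12.31 with vehicle. With BMS961 it was at 12.30, 12.25, 12.05 and 11.83, and with BMS753 and BMS641 between 12.09 and 12.19. Late ATRA gave the lowest 2 levels, with vehicle array 1 close above. A second probe set named Pcna, at 11.36 at 48 h of ATRA, was nearly identical on every array and may read the same sequence. Rfc5, a loader subunit, was at 10.34, 10.54, 10.07 and 9.48 with ATRA, at 10.05 and 10.42 with vehicle and between 10.30 and 10.71 with the selective ligands. Rfc3 was at 9.32, 8.99, 8.62 and 8.58, but vehicle array 1, at 8.50, was lower still. Rfc4 departed from the list. Within the ATRA course it was highest at 24 h, at 10.24, 10.60, 11.18 and 10.59, and its late change of 0.46 ± 0.17 did not pass after adjustment (adjusted p = 0.133).

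Polymerase genes reached their low points at different times. Pola2, the regulatory subunit of polymerase alpha, was at 10.09, 10.23, 9.60 and 9.24 with ATRA and at 9.33 and 9.78 with vehicle. The selective ligands kept it between 9.66 and 10.02, so ATRA held both its highest and its lowest level. It fell by 0.74 ± 0.16 (1.67-fold, adjusted p = 0.0196). Pold2, of polymerase delta, was at 9.87, 9.92, 9.24 and 9.41 with ATRA, 9.34 and 9.68 with vehicle, 9.85, 9.87, 9.70 and 9.49 with BMS961, 10.06, 10.02, 9.97 and 9.96 with BMS753, and 10.15, 10.26, 10.10 and 9.99 with BMS641. Its fall of 0.57 ± 0.14 (1.48-fold, adjusted p = 0.0304) was already there at 24 h. Pold1, the catalytic subunit, was at 8.90, 9.14, 8.74 and 8.23 with ATRA, at 8.79 and 9.09 with vehicle and between 9.05 and 9.31 elsewhere. Pole, the catalytic subunit of polymerase epsilon, was at 9.51, 9.84, 9.86 and 8.91 with ATRA, and its changes did not pass. Both primase genes stayed near their early levels, at -0.02 for Prim1 and -0.06 for Prim2.

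The subunits of replication protein A differed from each other. Rpa2 was at 10.07, 10.07, 9.72 and 9.13 with ATRA, 10.46, 10.45, 10.06 and 9.91 with BMS961, 10.43, 10.38, 10.18 and 10.23 with BMS753, and 10.45, 10.30, 10.39 and 10.31 with BMS641. Vehicle gave 9.59 and 10.42, and only ATRA at 48 h lay under both. Rpa1, the large subunit, stood high where Rpa2 did not: it was at 10.45, 10.65, 10.41 and 9.99 with ATRA and at 10.17, 10.44, 10.91 and 10.40 with BMS961, against 9.73 and 10.05 with vehicle and 9.88 to 10.04 with BMS641. Its late level was above late BMS641 by 0.63 ± 0.18 with BMS961 and by 0.41 ± 0.18 with BMS753, neither past adjustment (adjusted p = 0.146 and 1). Rpa3 varied more between the vehicle arrays (6.91 and 8.18) than over any ligand's course.

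Fen1, the nuclease that trims Okazaki fragments, had the widest span of the list between ligands at 48 h. It was at 9.26, 8.74, 8.12 and 7.92 with ATRA, 9.62, 9.39, 9.07 and 9.11 with BMS961, 9.48, 9.36, 9.29 and 9.19 with BMS753, and 9.37, 9.24, 9.39 and 9.33 with BMS641. Vehicle arrays stood at 8.33 and 9.38, so both late ATRA arrays were below both, and vehicle array 1 was below every array of the selective ligands. It fell by 0.98 ± 0.25 from early to late with ATRA (1.97-fold, adjusted p = 0.0389). At 48 h the 4 ligands spanned 1.41 in Fen1, 1.20 in Mcm10 and 1.19 in Rpa2, the largest spans of the list. Lig1, the ligase of the same step, was low only at 48 h of ATRA, at 9.78 after 10.28, 10.42 and 10.22.

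Of the deoxynucleotide genes Rrm2 fell. It encodes the regulated subunit of ribonucleotide reductase and was at 11.46, 11.34, 10.87 and 10.13 with ATRA, 11.61, 11.53, 11.11 and 10.75 with BMS961, 11.46, 11.51, 11.34 and 11.15 with BMS753, and 11.53, 11.42, 11.39 and 11.27 with BMS641. Vehicle arrays were at 10.71 and 11.41. In each of the 4 ligands the 48 h array was the lowest, deepest with ATRA, then BMS961. The late change was -0.90 ± 0.20 with ATRA (1.87-fold, adjusted p = 0.0237), and -0.64 ± 0.20 with BMS961, which did not pass (adjusted p = 0.184). Rrm1, the large subunit, was at 11.78, 11.80, 11.20 and 11.20 with ATRA, next to 11.14 on vehicle array 1. Tyms, thymidylate synthase, was lowest at 48 h of ATRA, at 8.97.

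Against vehicle the late ATRA arrays were lower in 38 of the 44 genes (53.7% of all genes), by a median of 0.22 (all genes -0.02). Of the members 1, Mcm10, was called lower and 0 higher, where 1.4% and 3.31% of all genes were, and 11 were lower at an unadjusted p under 0.05 (7.64% of all genes). Larger differences, of -0.84 ± 0.25 for Fen1 and -0.78 ± 0.22 for Orc1, did not pass adjustment (adjusted p = 0.0832 and 0.0639). The size depended on the vehicle array: the median of the 44 at 48 h was -0.27 against vehicle array 1 and -0.52 against vehicle array 2. At 48 h 33 of the 44 were below both vehicle arrays, against 42.2% of all genes. At 2 and 6 h of ATRA they were instead above vehicle array 1 by medians of 0.25 and 0.30, and near vehicle array 2, at -0.03 and 0.05. With the array set as a block 0 members were called and Mcm10 was at -0.67 (adjusted p = 0.221). Mcm10 lost its call without vehicle array 2 or the 48 h ATRA array. It did so too without any 1 of the BMS961 arrays, the early BMS753 arrays or the early BMS641 arrays. Without vehicle array 1 or the 24 h ATRA array more members were called, in fits that leave 1 array in a group. The number of calls over all genes also moved with the array left out.

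Against late BMS641, at the same times and dose, late ATRA was lower in 40 of the 44 (56.2% of all genes). The median was -0.33 over the 44 and -0.04 over all genes. The test called 13 lower (Orc1, Cdc6, Gmnn, Gins1, Gins4, Mcm10, Pcna, Rfc5, Pold1, Pold2, Rpa2, Fen1 and Rrm2) and 0 higher, where 6.98% and 7.81% of all genes were called. Fen1 stood furthest apart, at -1.34 ± 0.25 (2.54-fold lower, adjusted p = 0.00721), then Orc1 (-0.95 ± 0.22), Rpa2 (-0.93 ± 0.22), Mcm10 (-0.83 ± 0.17) and Rrm2 (-0.83 ± 0.20). Gmnn was lower by 0.81, Pold1 by 0.76, Pcna by 0.75, Rfc5 and Pold2 by 0.72, Gins1 by 0.68, Gins4 by 0.65 and Cdc6 by 0.52. The span runs through loading, activation, the clamp, polymerase delta and nucleotide supply, and the MCM2-7 subunits, between -0.50 and -0.13, were not called. Both late ATRA arrays were below both late BMS641 arrays for 30 of the 44, against 31.8% of all genes. At 48 h alone 22 of the 44 were at least 1.5-fold lower, against 8.31% of all genes, and 0 were 1.5-fold higher, against 11.5%. At 2 and 6 h the medians were -0.04 and 0.06. The array set used here, which no label names, divides ATRA from BMS641. With this set as a block 0 of the 13 were called, with values between -0.69 (Mcm10) and 0.05 (Gins1). Gins1 and Pcna (0.03) then changed sign. Without the 48 h ATRA array 1 was called, Pold2, without the 24 h BMS641 array 1, Mcm10, and without its 48 h array 0. Centring each array on its median moved the median change over all genes in this comparison to -0.20, and 19 members were then called. Over the alternative settings that kept all arrays, the calls over all genes ran from 13 to 3568.

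The test of the difference between the courses asks whether ATRA's late change differed from that of BMS641. The median of this difference over the 44 was -0.42, against 0.00 over all genes, and 41 of 44 were below 0 (49.5% of all genes). Limma called 0 members, where 0.125% of all genes were called lower and 0.176% higher, and 14 were lower at an unadjusted p under 0.05 (4.84% of all genes). Cdc6 was at -0.95 ± 0.22 (adjusted p = 0.106), Mcm10 at -0.96 ± 0.25 (adjusted p = 0.136) and Fen1 at -1.03 ± 0.36 (adjusted p = 0.246). With the array set as a block 4 were called, Cdc6, Pola2, Fen1 and Rrm1. Over the alternative settings that kept all arrays 47 to 600 genes were called in all. Members were called also without either vehicle array or without the 24 h ATRA array.

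**Figure D4:**
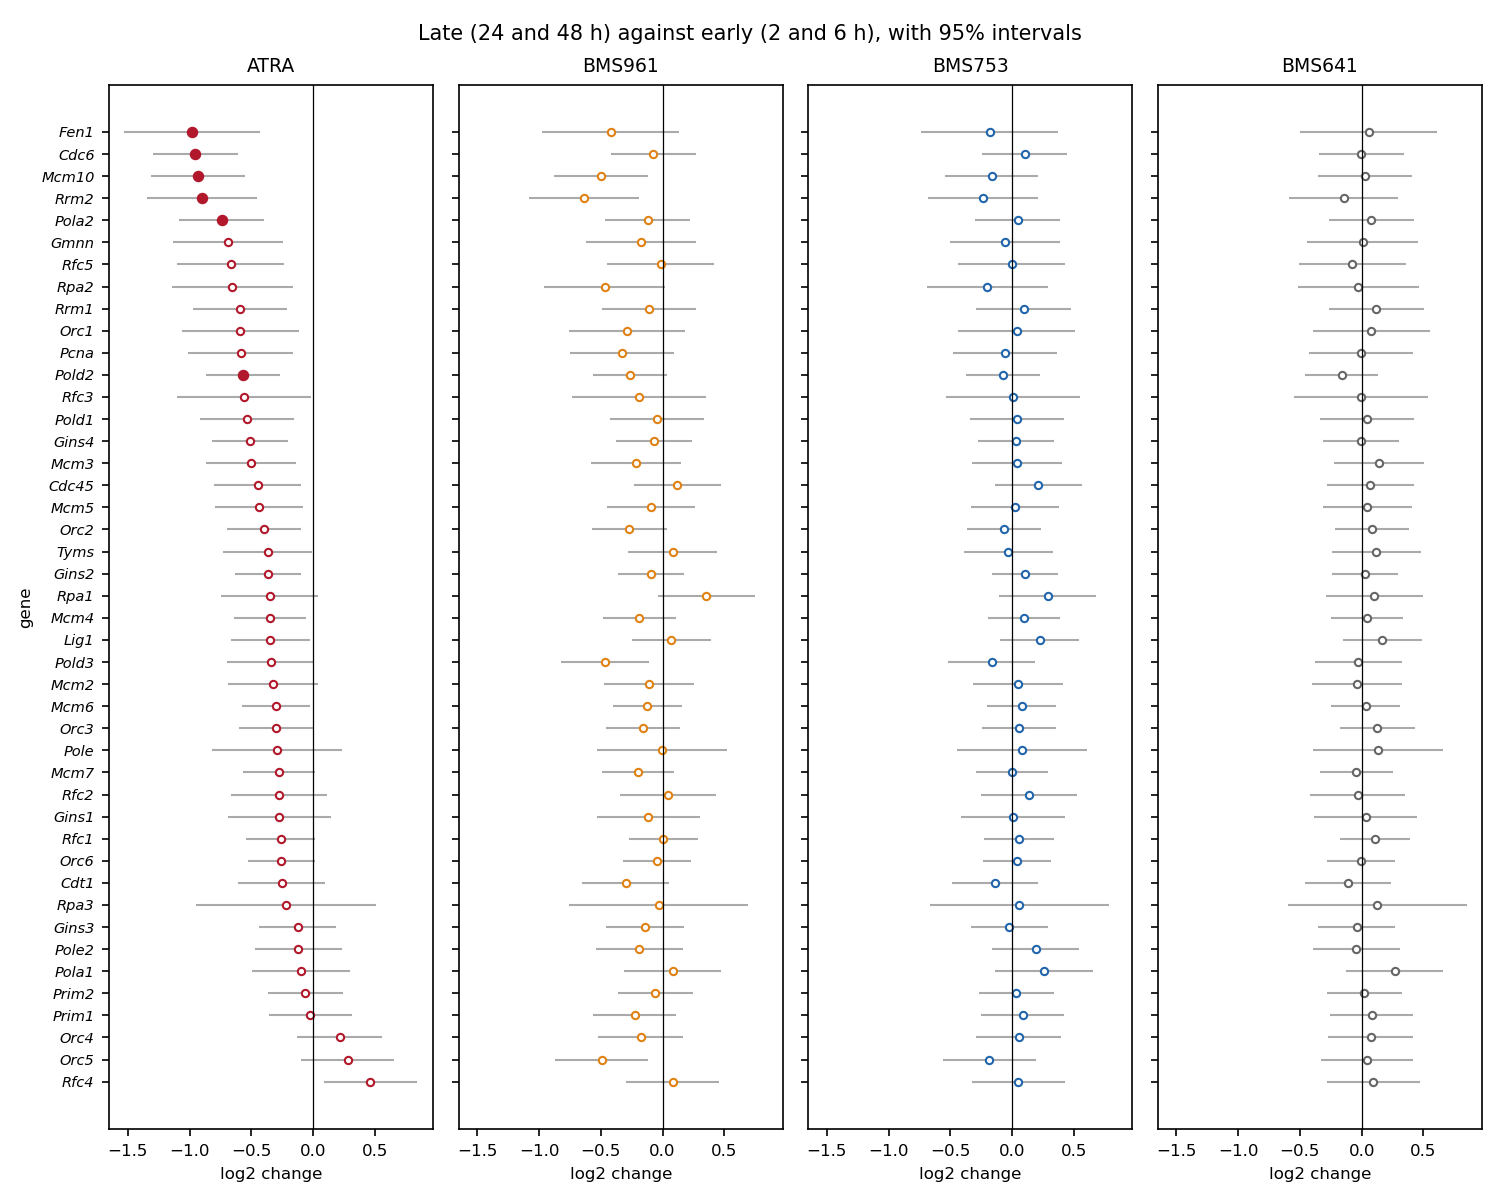
Change from early (2 and 6 h) to late (24 and 48 h) of each replication gene with each ligand, on the log2 scale, with 95% intervals of the limma fit, where filled points passed the test. With ATRA 41 of 44 points lie left of 0 and 6 are filled, with BMS961 36 lie left of 0, and with BMS753 and BMS641 the points sit around 0.

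BMS961, at 0.1 µM where ATRA was at 1 µM, gave lower late levels in most members, and no single gene passed. Of the 44 genes 36 were lower late than early (58.9% of all genes), with a median of -0.12 (all genes -0.04). Limma called 0 of them, where 0.266% of all genes were called lower and 0.502% higher. At an unadjusted p under 0.05 4 were lower (6.68% of all genes): Rrm2 (-0.64 ± 0.20), Pold3 (-0.47 ± 0.16), Mcm10 (-0.50 ± 0.17) and Orc5 (-0.49 ± 0.17). With the array set as a block limma called 1, Rrm2 (adjusted p = 0.0319), and a call appeared also without either vehicle array. Over the alternative settings that kept all arrays 69 to 767 genes were called in all. The lowest of the 4 BMS961 arrays was the one at 48 h for 30 genes, against 26.6% of all genes. Against late BMS641 0 members were called, where 0.557% of all genes were called lower and 0.637% higher, and the median was -0.10. At an unadjusted p under 0.05 5 were lower (Orc5, Pold2, Cdt1, Mcm7 and Mcm10, against 5.79% of all genes) and 1 higher (Rpa1, against 5.28%). The median of the list against BMS641 at 48 h was -0.17, but 1 gene, Orc5, was 1.5-fold lower there, against 3.05% of all genes. Against vehicle limma called 0 (0.446% of all genes were lower and 0.818% higher), and the median was 0.02. At an unadjusted p under 0.05 3 were higher (6.98% of all genes) and 1 lower (4.59%). The difference of the late change from that of BMS641 was called by limma in 0 members (0 of all genes lower and 0.00502% higher), with a median of -0.16 and 1 member, Orc5, lower at an unadjusted p under 0.05 (2.24% of all genes). The doses of ATRA and BMS961 differ, so no test set the 2 against each other. Where their values stand side by side, ligand and dose cannot be told apart.

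With BMS753 and BMS641 the replication genes stayed near their early levels for 48 h, with more small rises than falls. From early to late the medians were 0.04 with each (-0.01 over all genes with each). The change was below 0 for 15 members with BMS753 (52.8% of all genes) and 16 with BMS641 (54.3%). Both late arrays lay above both early ones for 17 members with BMS641 (16.4% of all genes) and 12 with BMS753 (23.4%). Both lay below for 4 (19.3%) and 8 (20.5%). Limma called 0 members. With BMS753 0.00502% of all genes were called higher and 0 lower, and with BMS641 0 in either direction. With no adjustment 0 members had a p under 0.05 with either ligand, where 2.71% of all genes were lower and 4.37% higher with BMS753, and 1.96% changed in either direction with BMS641. The range over the 4 arrays had a median of 0.18 over the members with BMS753 and 0.16 with BMS641, less than the 0.30 and 0.26 over all genes. Late BMS753 against late BMS641, both at 1 µM, gave 0 members called by limma (0 of all genes in either direction). Of the members 1 was higher at an unadjusted p under 0.05, Rpa1 (2.38% of all genes), and 0 were lower (1.68%). Over the 44 this difference had a median of -0.01 and lay between -0.36 (Orc5) and 0.41 (Rpa1). The intervals leave room for differences: that of Cdc6 ran from -0.22 to 0.47 and that of Mcm10 from -0.50 to 0.26. Against vehicle both ligands had positive medians, of 0.16 with BMS753 and 0.15 with BMS641, with 0 called by limma, where with BMS753 0.015% of all genes were lower and 0.171% higher, and with BMS641 0 in either direction. At an unadjusted p under 0.05 6 were higher (6.09% of all genes) and 1 lower (2.64%) with BMS753, and 3 higher (3.27%) and 0 lower (1.32%) with BMS641. The positive medians appeared against vehicle array 1 and not against its partner. At 48 h they were 0.31 with BMS753 and 0.22 with BMS641 against vehicle array 1. Against vehicle array 2 they were -0.0002 and -0.02. Without vehicle array 2, which leaves 1 vehicle array, members were called with each of the 2 ligands and with BMS961. Calls over all genes also moved when 1 array was left out.

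Over the 4 ligands together 3 members fell from early to late, Rrm2 by 0.48 ± 0.10 (adjusted p = 0.017), Mcm10 by 0.39 ± 0.09 (adjusted p = 0.0209) and Pold2 by 0.27 ± 0.07 (adjusted p = 0.0368), where 2.36% of all genes were called lower and 5.22% higher. Fen1, at -0.38 ± 0.13, did not pass (adjusted p = 0.0916), and 12 were lower at an unadjusted p under 0.05 (10.9% of all genes). The mean covers unlike courses: for Rrm2 it joins -0.90 for ATRA, -0.64 for BMS961, -0.24 for BMS753 and -0.15 for BMS641. With the set as a block the count was 7, and over the alternative settings that kept all arrays 1429 to 2703 genes were called in all. Leaving out the 48 h ATRA array did not change the count of 3. It rose without the 24 h ATRA array or either vehicle array, and fell without any other single array.

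The other genes of the pathway, 60 measured of 62 listed, also held genes that changed with ATRA from early to late, where 2.32% of all genes were called lower and 4.95% higher. Of 18 origin-firing kinases and fork factors 3 fell from early to late: Ccne1, the G1/S cyclin E1, by 1.39 ± 0.21 (2.63-fold, adjusted p = 0.0058), the origin kinase gene Cdc7 by 0.78 ± 0.20 and the checkpoint mediator Clspn by 0.64 ± 0.17. Ccne1 was at 10.86, 10.67, 9.50 and 9.23 with ATRA and at 9.45 and 10.25 with vehicle, so the late ATRA arrays sat beside or below vehicle array 1. With BMS961 it was at 10.51, 10.56, 10.08 and 9.69, and with the other ligands between 10.31 and 10.72. Of 13 further polymerase, primer and clamp factors the nuclease gene Dna2 (-0.94 ± 0.19) and the clamp-loader gene Chtf18 (-0.96 ± 0.22) fell, and Pold4, a small subunit of polymerase delta, rose by 0.57 ± 0.15. Pold4 signal was low, at 5.36, 5.57, 5.90 and 6.17 with ATRA and between 5.29 and 5.58 on all other arrays. The median over all genes lay between 5.82 and 6.07 per array. Of 8 genes of nucleotide synthesis and salvage 4 fell: Tk1, thymidine kinase, by 1.13 ± 0.22 (adjusted p = 0.0146), Cad and Umps of pyrimidine synthesis by 0.92 and 0.48, and the nucleotide-pool enzyme gene Dctpp1 by 0.79. In this group the median step was -0.55 from 6 to 24 h and -0.02 from 24 to 48 h, where single genes lay between -0.22 and 0.46. Tk1 was at 9.04, 8.94, 7.63 and 8.08 with ATRA and at 7.65 on vehicle array 1, against 8.55 on vehicle array 2. Of 8 genes of replication-coupled chromatin 3 fell: Uhrf1, which guides maintenance methylation, by 1.06 ± 0.18 (adjusted p = 0.00778), its partner Dnmt1 by 0.65 ± 0.14 and Supt16, a histone chaperone subunit, by 0.49 ± 0.13.

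The E2F group changed in both directions. Of 13 E2F and pocket protein genes 5 fell with ATRA from early to late and 1 rose, against 2.32% and 4.95% of all genes. Those that fell were E2f2 (-0.84 ± 0.11, adjusted p = 0.00401), E2f3 (-0.80 ± 0.19), E2f4 (-0.54 ± 0.12), E2f8 (-1.00 ± 0.20) and the dimer partner Tfdp1 (-0.47 ± 0.11). Rb1, whose protein holds E2F in check, rose by 1.00 ± 0.18 (adjusted p = 0.00939). E2f2 was at 7.05, 6.99, 6.18 and 6.18 with ATRA, between 6.56 and 7.07 with the selective ligands, and at 6.53 and 6.50 with vehicle. Its 2 late ATRA arrays were thus the lowest of the 18, just under the vehicle arrays. Rb1 was at 7.11, 7.21, 8.42 and 7.90 with ATRA and between 6.89 and 7.55 on all other arrays. E2f4, the repressor of quiescent cells, fell also with BMS961, where 0.266% of all genes were called lower, by 0.59 ± 0.12 (adjusted p = 0.0463), at 10.33, 10.19, 9.75 and 9.59.

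**Figure D5:**
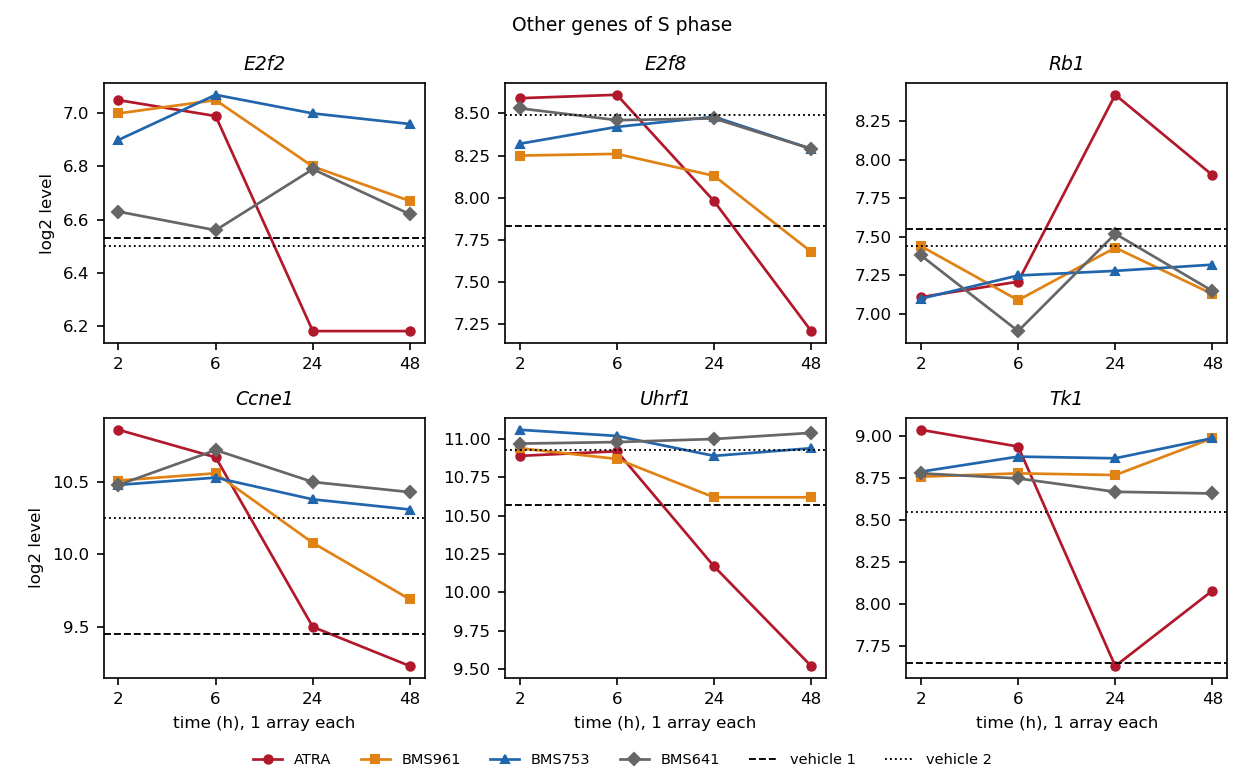
Log2 levels of 6 further S-phase genes by time in h, 1 array per point, with the vehicle arrays as horizontal lines. With ATRA E2f2, E2f8, Ccne1, Uhrf1 and Tk1 are below and Rb1 is above their early levels at both late times, and vehicle array 1 lies below vehicle array 2 in E2f8, Ccne1, Uhrf1 and Tk1 but not in E2f2.

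Markers of mitosis and of differentiation moved on the same arrays, and their part in the fall of the replication genes was not tested. Of 14 mitosis genes 4 fell from early to late with ATRA (Cdk1, Aurka, Bub1b and Mki67), against 2.32% of all genes, with a median of -0.41 over the list. With BMS961 limma called 0 of the 14 (0.266% of all genes were lower and 0.502% higher), and 0 at an unadjusted p under 0.05 (6.68% lower and 6.46% higher), with a median of -0.06. The log2 of their summed level ran from 13.32 to 13.93 over the ATRA arrays, 13.91 to 14.08 with BMS961 and 13.72 to 13.95 with vehicle. Of 12 endoderm markers 2 rose with ATRA (4.95% of all genes), Gata4 by 2.16 ± 0.44 and Sox7 by 1.41 ± 0.35, and 1, Gata6, rose with BMS961 (0.502% of all genes), by 3.20 ± 0.51. Gata6 reached 11.30 at 48 h of ATRA and 10.93 at 48 h of BMS961, and 8.03 and 6.40 with BMS753 and BMS641. The summed endoderm level ran from 11.62 to 14.08 with ATRA and 11.42 to 13.20 with BMS961. It ran from 11.43 to 11.81 with BMS753, 11.43 to 11.51 with BMS641 and 11.43 to 11.91 with vehicle. That of 10 embryonal carcinoma markers stayed between 14.57 and 15.22 on all arrays. The highest genes, such as Dppa5a at 12.83 to 13.52, carry that sum, and it can hide a fall of single markers. Of the 10 embryonal carcinoma markers, Utf1 and Tdgf1 fell from early to late with ATRA, by 1.02 and 1.47 (2.32% of all genes were called lower). With BMS961 they fell by 0.80 and 1.38 (0.266% of all genes). Against vehicle 7 of the 10 were lower in late ATRA (53.7% of all genes) and 3 higher. Limma called 4 of them lower and 0 higher, where 1.4% and 3.31% of all genes were. The summed level of the 8 fibroblast markers reached 10.35 with ATRA and 10.34 with BMS961 and lay between 8.11 and 8.68 with vehicle, BMS753 and BMS641. Pdgfra carried these sums, and the median change of the 8 from early to late was -0.18 with ATRA and -0.13 with BMS961.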

How the data were processed

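Each of the 18 arrays was an Affymetrix gene array of RNA from F9 cells. The authors deposited log2 values. The submitters' processing notes name RMA and version 1.1 of Affymetrix Expression Console. For the probe sets' genome build and annotation, the sources used here give none. RMA equalises the arrays, so a change in total RNA per cell does not appear, and array signal, not read depth, limits the precision: 1 array stands for each ligand and time. Values ran from 2.05 to 14.36.

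Of 35556 probe sets 21789 had 1 gene symbol, 1621 several and 12146 none here. The probe set with the highest mean stood for a gene, which gave 19938 genes. The 2 Pcna probe sets were nearly identical on every array and may read the same sequence or a copy. The members and lists were chosen with earlier results of these data known.

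Limma 3.58.1 (R 4.3.3) fitted 9 group means (vehicle, and early and late for each ligand) plus a step between 2 and 6 h and another between 24 and 48 h, shared by all ligands, on 7 residual degrees of freedom. Each of the 15 comparisons was adjusted over all genes by Benjamini-Hochberg, with calls at adjusted p under 0.05. Errors are standard errors of the fit, and a step that differed between ligands counts as spread in them. Single arrays were set against single arrays by fold alone, without a test. On simulated data with 19938 genes the late against early comparison of ATRA recovered 26% of genes changed 1.5-fold and 88% of those changed 2-fold. Recovery of genes that were low at 48 h alone, like the MCM2-7 subunits with ATRA, was not tested. Values in every array, or their range over the selective ligands where these lay close together, are given for members called in a comparison and for the 3 largest changes over 4 ligands and the 3 widest spans at 48 h, and other members are named by role. Genes of the other lists are named where called, at most 6 per list. Alternatives were quantile normalization, centring, a level filter, the mean of probe sets, a trended robust fit, no common steps, an array-set block, other fold limits and each array left out. Python 3.11.15 with pandas 2.3.3 drew up the tables.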

Additional observations from a re-analysis of the deposited data

Results flagged for a closer look

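E2f2, an activating E2F factor, was a listed gene whose change from early to late differed between ligands by a test of the difference: with ATRA it was -0.96 ± 0.15 relative to BMS641 (limma, adjusted p = 0.0367). None of the 44 replication genes passed this test, and 14 were lower at an unadjusted p under 0.05. Each change is taken within a ligand. ATRA and BMS641 lie in different sets of the grouping used here, which no label names, and the part of such a set in this result was not tested.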

How the results depend on the processing

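Each ligand and time rests on 1 array, so the limits are in the arrays and not in the genes. Of 44 genes called, the count for ATRA late against early, 6, became 10 with quantile normalization, 10 with genes above the median level only, 10 with no common steps and 15 with the array set as a block. For ATRA late against vehicle, 1, it became 2 with quantile normalization and 0 with the block. For BMS961 late against vehicle, 0, it became 1 with quantile normalization and 1 with a trended robust fit. With the block the count went from 13 to 0 for ATRA against BMS641, from 0 to 1 for BMS961 late against early, from 3 to 7 for the 4 ligands and from 0 to 4 for the difference between ATRA and BMS641. Gins1 (0.0533) and Pcna (0.0269) turned sign with the block in ATRA late against BMS641 late. The block takes the difference between the vehicle arrays (array 1 minus 2) off each value. That difference was -0.74 for Gins1 and -0.78 for Pcna, and what lies behind it was not tested. Over all 19938 genes the counts of calls ran, over the settings other than leaving out an array, from 1131 to 2554 for ATRA late against early, from 175 to 969 for ATRA against vehicle, from 13 to 3568 for ATRA against BMS641 and from 1429 to 2703 for the 4 ligands, and with 1 array left out from 31 to 2554, 148 to 3594, 67 to 4188 and 434 to 2703.

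Leaving out 1 array at a time gave 0 to 15 for ATRA late against early, 0 to 12 for ATRA against vehicle, 0 to 18 for ATRA against BMS641, 0 to 7 for the 4 ligands, 0 to 6 for the difference between ATRA and BMS641, 0 to 3, 0 to 7 and 0 to 7 for BMS961, BMS753 and BMS641 against vehicle, and 0 to 1 for BMS961 late against early. A group left with 1 array is then assumed to vary like the others. Of 23 gene results named as called, 19 lost the call without the 48 h ATRA array, 16 without the 24 h and 15 without the 48 h BMS641 array. No paired analysis was possible because the groups share fewer than 2 replicate numbers. Times were matched across ligands through the shared time steps of the fit.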
